A study of Mus musculus with 10 samples.

Results

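The 10 genes followed here belong to the BCL2 family, which controls cell survival, and were measured by RNA sequencing of dendritic cell precursors. They are the survival genes Mcl1, Bcl2a1a, Bcl2a1b, Bcl2a1d, Bcl2 and Bcl2l1, the death-promoting BH3-only genes Bcl2l11 and Bid, and the effectors Bax and Bak1. They were taken by gene name from the deposited expression table, where they are 10 of 52550 genes, and all 10 passed the filter on low values that left 14787 genes for testing. Spleens of C57BL/6 mice gave 2 kinds of cell, pre-cDC1 and pre-cDC2, each committed to become 1 of the conventional dendritic cell (cDC) lineages, cDC1 or cDC2. The sample titles call pre-cDC1 DN and pre-cDC2 Ly6C. Wild-type mice (WT) were compared with CD11c-cre Adam10fl/fl mice (KO), whose Cre, driven by the CD11c promoter, deletes a loxP-flanked part of Adam10 in CD11c-expressing cells. The product, ADAM10, cuts proteins off the cell surface, and the series title concerns its cutting of FLT3L, a growth factor for cDCs. Pre-cDC1 had 3 libraries per genotype. Pre-cDC2 had 2 per genotype, with replicate numbers 2 and 3 for WT and 1 and 2 for KO. WT and KO name libraries by their labels throughout.

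BCL2 family proteins decide whether the outer mitochondrial membrane is permeabilized, the step that releases cytochrome c and commits a cell to apoptosis. BAX and BAK form the pores, the survival proteins MCL-1, A1, BCL-2 and BCL-XL hold them in check, and BH3-only proteins such as BIM and BID relieve that restraint or activate the pore formers directly. Dendritic cells are short-lived, and both FLT3 signalling and several survival proteins are known to affect their numbers.

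Between the cell types, all members but Mcl1, Bax and Bak1 fell into 2 patterns. Mcl1, Bax and Bak1 were not called between the cell types in either genotype. The Bcl2a1 copies and Bid were lower in all 4 pre-cDC2 libraries than in any pre-cDC1 library, in WT as in KO, and of these only Bcl2a1b did not pass the test. Bcl2 and Bcl2l1 in both genotypes, and Bcl2l11 in KO, were called higher in pre-cDC2, but their levels were high mainly in the 3 pre-cDC2 libraries that also carried abundant T cell and NK cell transcripts. None of the 10 genes passed the test between KO and WT in either precursor.

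Values are log2 RPKM, the log2 of reads divided by gene length and by library size, so that genes can be compared per length. Total reads per library, recovered from the deposited values, were 7862449 to 13177686. The labels do not say that replicates were separate animals, so the p-values measure the spread between these libraries, which may be technical in part. Of the marker lists, all 10 cDC1 markers, such as Xcr1 and Clec9a, were called lower in pre-cDC2 in both genotypes, and 1 of 9 tested cDC2 markers was called higher in WT and 7 in KO. Core cDC markers had 6 of 10 called lower and 1 higher in each genotype, and plasmacytoid DC markers had 6 of 10 called higher in WT and 7 in KO. The targeted gene, Adam10, had 10 to 48 reads per WT pre-cDC1 library and 3 to 13 per KO pre-cDC1 library (log2 difference -1.68 ± 0.92, adjusted p = 0.644, limma). For WT pre-cDC2 it had 228 reads in replicate 2 and 1261 in replicate 3, and for KO pre-cDC2 909 and 742 (1.03 ± 1.12, adjusted p = 0.884), so that both libraries labelled KO lay between the WT libraries, at 4.24 and 4.11 log2 RPKM against 1.76 and 4.53. Against WT replicate 3 alone they were lower, and against replicate 2 alone higher. These reads are counted over the whole gene, and those from outside the deleted part check nothing. WT pre-cDC2 replicate 2 stood apart: it correlated with replicate 3 at r = 0.774 over the genes tested, against 0.867 to 0.886 within the other groups. The mean of 20 T cell markers was 2.67 log2 RPKM in it, 6.63 in replicate 3, 6.22 and 6.16 for KO pre-cDC2 and -2.92 to 0.14 over the pre-cDC1 libraries. No T cell marker was at 0 reads in any pre-cDC2 library. The mean of 15 NK cell markers was 1.78 in WT pre-cDC2 replicate 2, 5.96 to 6.11 in the other pre-cDC2 libraries and -2.96 to 0.54 in pre-cDC1. In bulk RNA, fewer cells of a type and less RNA per cell cannot be told apart.

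Bcl2a1a, Bcl2a1b and Bcl2a1d are near-identical copies of the gene for A1, a survival protein of blood cells. They lie on mouse chromosome 9 (GRCm38), Bcl2a1d at chr9:88723285-88731914 on the minus strand, Bcl2a1a at chr9:88956900-88962419 and Bcl2a1b at chr9:89199209-89207827 on the plus strand. Their GENCODE M21 transcripts are 98.2% to 99.1% identical in aligned bases. Of 516 coding bases, 12 differ among the copies, and 7 of these are in the first 120 bases. That stretch is shown because it holds most of the coding differences among the copies. Capitals mark the 7 positions that differ, 5′ to 3′ on the coding strand.
Bcl2a1a chr9:88957051-88957170: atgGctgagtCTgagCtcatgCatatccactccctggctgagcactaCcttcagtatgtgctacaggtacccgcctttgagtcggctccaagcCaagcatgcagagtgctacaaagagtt
Bcl2a1b chr9:89199360-89199479: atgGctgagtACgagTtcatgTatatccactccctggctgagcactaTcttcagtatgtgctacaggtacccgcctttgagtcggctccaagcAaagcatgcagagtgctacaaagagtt
Bcl2a1d chr9:88731600-88731719: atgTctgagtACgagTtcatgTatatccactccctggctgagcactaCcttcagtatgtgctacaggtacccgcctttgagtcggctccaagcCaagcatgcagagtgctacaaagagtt

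The promoters of the copies are as alike as their transcripts. The RefSeq windows of 300 bases, from 250 before to 50 after the annotated start (GRCm38.p6), were 98.0% to 99.2% identical where they align. The stretches below are shown because these 3 genes move together between the cell types, and they hold a GAGGAAGT match, the core letters of a PU.1-type ETS site. Capitals mark that match together with any GAGGAA unit directly before it, of which Bcl2a1a and Bcl2a1b have 1 and Bcl2a1d has none.
Bcl2a1a chr9:88956756-88956853, plus strand: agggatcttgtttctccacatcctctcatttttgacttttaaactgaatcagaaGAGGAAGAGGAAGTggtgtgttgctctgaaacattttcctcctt
Bcl2a1b chr9:89199065-89199162, plus strand: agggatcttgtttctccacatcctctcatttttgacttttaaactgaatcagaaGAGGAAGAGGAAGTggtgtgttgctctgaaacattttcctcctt
Bcl2a1d chr9:88731917-88732014, minus strand: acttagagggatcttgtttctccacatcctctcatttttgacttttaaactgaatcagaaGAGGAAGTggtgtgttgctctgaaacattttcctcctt
Searched on both strands, GAGGAAGT was found in 4 of the 13 promoter windows of the 10 genes, and in 3.2% of 32851 RefSeq promoter windows. The 4 windows were those of Bak1, Bcl2a1a, Bcl2a1b and Bcl2a1d. The letters were set with the sequence of the copies known, and the near-identical windows of the 3 copies are not separate observations. These shares are therefore no test of enrichment. An NF-kB motif was searched in the same way and found in 1.2% of all windows, an ETS-IRF composite motif in 2.72%, and neither in a window of the 10 genes. A match is a description of letters, not a bound site.

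Bcl2a1a was present in every pre-cDC1 library and nearly absent from pre-cDC2. It stood at 4.10, 4.96 and 4.65 log2 RPKM for WT pre-cDC1 replicates 1, 2 and 3, and at 5.11, 4.77 and 5.54 for KO pre-cDC1. WT pre-cDC2 replicate 2 had 0 reads of it and replicate 3 had 3, while KO replicates 1 and 2 had 0 and 1, against 126 to 290 reads per pre-cDC1 library. The ratio of reads, pre-cDC1 over pre-cDC2 and scaled for depth, was 166 in WT (exact 95% interval 56.5 to 808, counting error only) and 536 in KO (95.8 to 21180). The gene was called lower in pre-cDC2 in both genotypes, with adjusted p = 0.00139 in WT and 0.000396 in KO (limma, Benjamini-Hochberg). It passed the filter through its pre-cDC1 values alone. With 0 to 3 reads, its pre-cDC2 values rest mainly on the small amount added before the log2. The log2 difference in WT ran from -9.62 to -4.39 over the settings tried. The p-values therefore add little to the reads.

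Bcl2a1d was the most abundant copy by RPKM. The pre-cDC1 libraries read 5.56, 5.34 and 4.97 log2 RPKM for WT and 5.65, 5.66 and 6.25 for KO. The pre-cDC2 libraries read 1.26 and 2.33 for WT and 1.63 and 1.11 for KO. The cell types did not overlap in either genotype. Bcl2a1d was lower in pre-cDC2 by a log2 difference of -3.50 ± 0.34 (SE) in WT (11.3-fold, adjusted p = 0.000307, limma) and -4.49 ± 0.34 in KO (22.4-fold, adjusted p = 4.59e-05). It was called in all 19 alternatives that hold it as a gene of its own, in both genotypes. Without WT pre-cDC2 replicate 3 the difference in WT was -4.03, and without replicate 2 it was -2.96.

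Bcl2a1b was the scarcest copy in pre-cDC1. Pre-cDC1 libraries held 19 to 46 reads of it, at 1.95, 1.89 and 1.21 log2 RPKM for WT and 2.03, 2.53 and 2.29 for KO. Pre-cDC2 libraries held 6 to 18 reads, at -0.82 and 1.01 log2 RPKM for WT and 0.61 and 0.78 for KO. All 4 pre-cDC2 values lay below all 6 pre-cDC1 values. The difference was -1.59 ± 0.53 in both genotypes and missed the threshold (adjusted p = 0.0892 in WT and 0.0631 in KO, limma). In WT it was -2.51 without WT pre-cDC2 replicate 3 and -0.68 without replicate 2, with a lone WT pre-cDC2 library left each time. An annotated gene on the same strand, Gm29094, covers 49.1% of its exon bases, and Gm29094 had 0 reads in all 10 libraries.

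Because the counting could split or drop reads that match several copies, the copies were also summed on the RPKM scale. Of the windows of their transcripts as long as 1 sequencing read, 72.0% in Bcl2a1a, 86.1% in Bcl2a1b and 70.1% in Bcl2a1d were found in neither other copy. For pre-cDC1 the sum was 58.9 to 75.2 RPKM with the WT label and 83.7 to 128 with the KO label. For pre-cDC2 it was 2.98 and 7.39 RPKM with the WT label, 4.65 and 4.04 with the KO label. It was lower in pre-cDC2 by -3.84 ± 0.34 in WT (adjusted p = 0.000183, limma) and -4.50 ± 0.34 in KO (adjusted p = 4.46e-05). Levels of single copies remain uncertain, since how reads matching several copies were counted is not given in the sources used here.

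**Figure D1:**
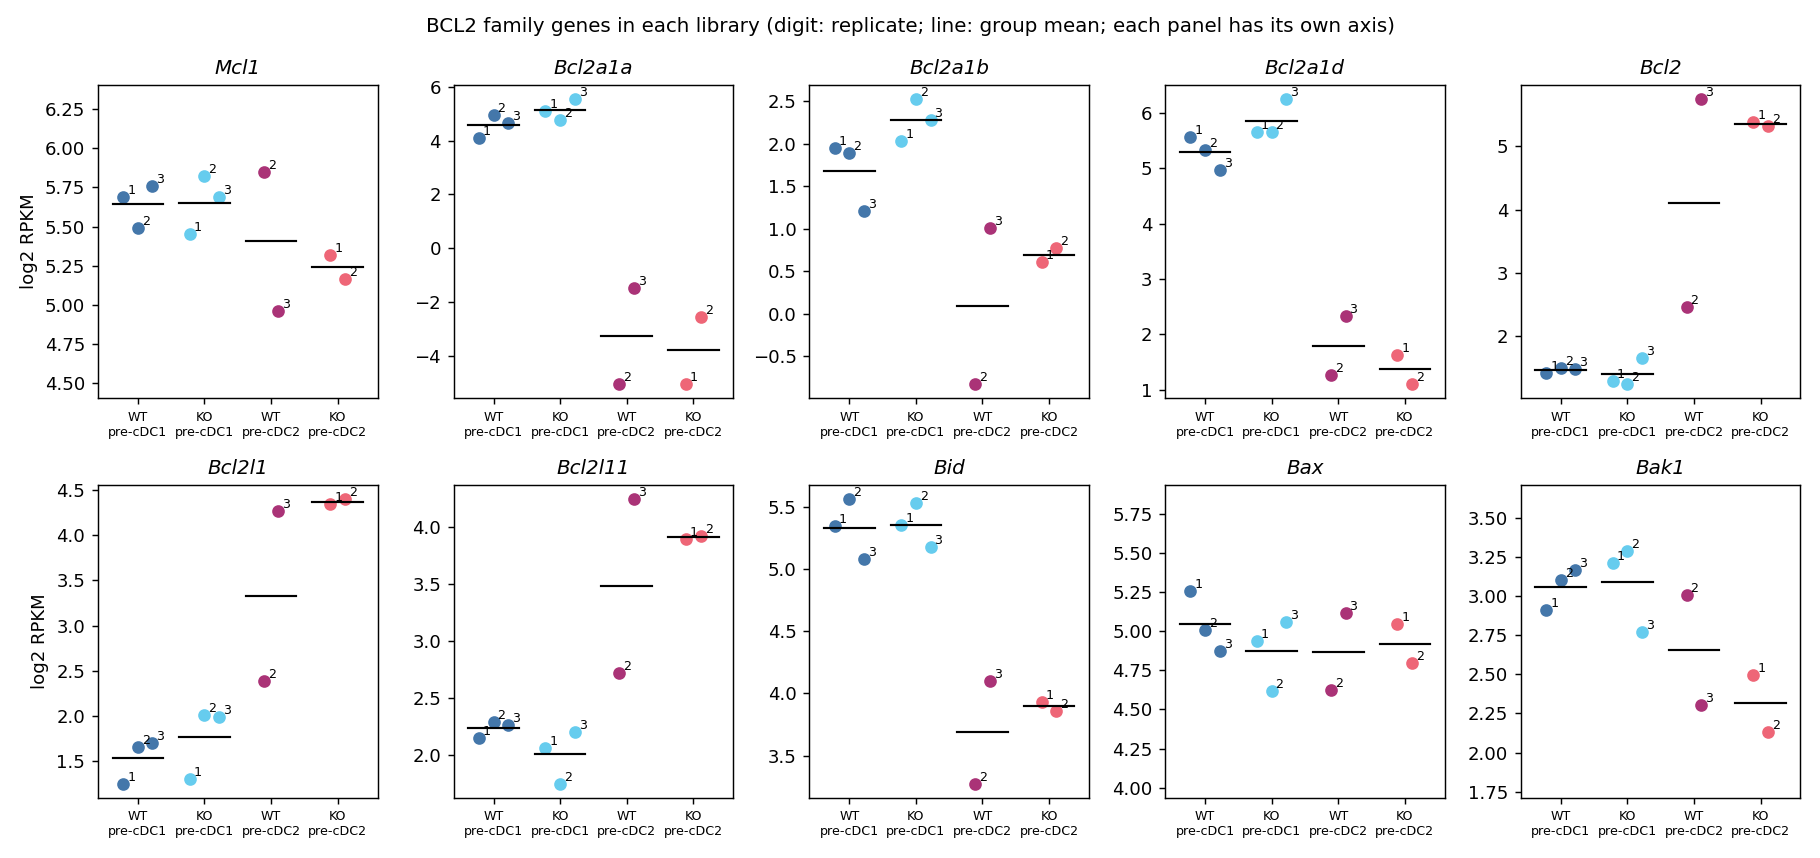
Level of each of the 10 genes in every library (vertical axis, log2 RPKM, its own range in each panel), by group, with replicate numbers beside the points and lines at group means. The Bcl2a1 copies and Bid are low in all 4 pre-cDC2 libraries, whereas Bcl2, Bcl2l1 and Bcl2l11 are high in 3 of them and lower in WT pre-cDC2 replicate 2.

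Mcl1 encodes a survival protein with a short half-life that many blood cells need. It was the only survival gene at a like level in both cell types: WT pre-cDC1 libraries read 5.69, 5.49 and 5.76 log2 RPKM, KO pre-cDC1 libraries 5.45, 5.82 and 5.69, WT pre-cDC2 libraries 5.85 and 4.96, and KO pre-cDC2 libraries 5.32 and 5.17. The 2 WT pre-cDC2 libraries held both the highest and the lowest of these values, and the KO cell types did not overlap. The difference between cell types was -0.24 ± 0.24 in WT (95% interval -0.78 to 0.30) and -0.41 ± 0.24 in KO (-0.95 to 0.13), and neither passed. With a lone WT pre-cDC2 library left, the WT difference was -0.69 without replicate 2 and 0.20 without replicate 3.

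Bcl2 encodes the founding survival protein of the family. It was low and even in pre-cDC1, at 1.41, 1.49 and 1.48 log2 RPKM for WT and 1.29, 1.24 and 1.65 for KO. In pre-cDC2 the WT replicates 2 and 3 stood at 2.46 and 5.75, and the KO libraries at 5.38 and 5.32. Every pre-cDC2 library was above every pre-cDC1 library, but WT pre-cDC2 replicate 2 was nearer to pre-cDC1 than to the other pre-cDC2 libraries. Bcl2 was higher in pre-cDC2 by 2.64 ± 0.72 in WT (6.25-fold, adjusted p = 0.0460, limma) and by 3.96 ± 0.72 in KO (15.6-fold, adjusted p = 0.00478). The KO call held in all 20 alternatives and the WT call in 6 of 20. The WT difference was 4.29 without WT pre-cDC2 replicate 2 and 1.00 without replicate 3, where a lone library stood for WT pre-cDC2. An antisense gene, D630008O14Rik, shares 6.1% of the exon bases of Bcl2 and had 1 to 101 reads per library, against 213 to 5470 for Bcl2.

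Bcl2l1, which encodes BCL-XL, followed the same order. Pre-cDC1 values were 1.26, 1.66 and 1.71 log2 RPKM for WT and 1.30, 2.02 and 1.99 for KO, and pre-cDC2 values were 2.39 and 4.27 for WT and 4.34 and 4.40 for KO. The cell types did not overlap, and the low pre-cDC2 value was again WT replicate 2. Bcl2l1 was higher in pre-cDC2 by 1.79 ± 0.49 in WT (3.46-fold, adjusted p = 0.0436, limma) and by 2.60 ± 0.49 in KO (6.07-fold, adjusted p = 0.00522). The KO call held in all 20 alternatives and the WT call in 6 of 20. In WT the difference was 2.73 without pre-cDC2 replicate 2, and 0.85 and no longer called without replicate 3.

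The make-up of the survival transcripts differed accordingly. Of the summed RPKM of the 6 survival genes, the Bcl2a1 copies made up 49.4% to 59.6% of WT pre-cDC1 libraries, 57.1% to 68.5% of KO pre-cDC1 libraries and 3.99% to 6.63% of pre-cDC2 libraries. Bcl2 made up 1.62% to 2.34% in pre-cDC1, 7.68% in WT pre-cDC2 replicate 2 and 39.2% to 48.1% in the other pre-cDC2 libraries. Mcl1 alone made up 80.8% in WT pre-cDC2 replicate 2, against 27.9% in replicate 3, 37.4% and 35.5% for KO pre-cDC2 and 27.7% to 45.5% in pre-cDC1. The sum itself was lowest in WT pre-cDC2 replicate 2, at 71.4 RPKM, against 101 to 112 in the other pre-cDC2 libraries and 119 to 186 in pre-cDC1.

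**Figure D2:**
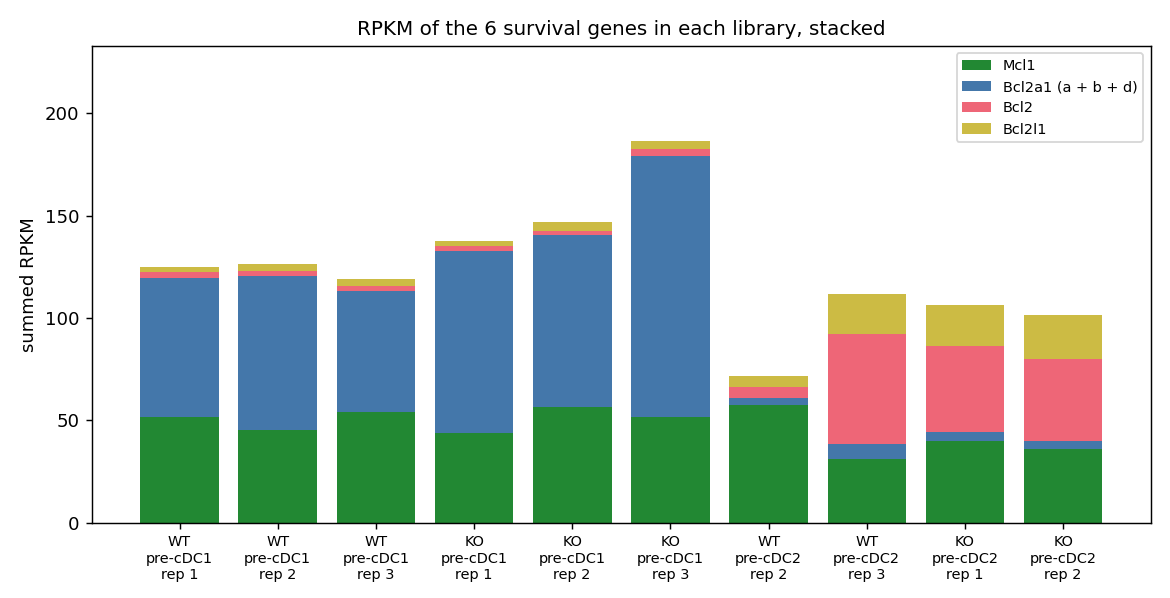
Summed RPKM of the 6 survival genes in each library (vertical axis), stacked by gene with the 3 Bcl2a1 copies as 1 block. Bcl2a1 fills 49.4% to 68.5% of the bars of pre-cDC1 and 3.99% to 6.63% of those of pre-cDC2, where Bcl2 and Bcl2l1 take a large part in 3 libraries and Mcl1 dominates WT pre-cDC2 replicate 2.

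Among the death-promoting genes, Bcl2l11 and Bid went in opposite directions. Bcl2l11 encodes BIM, a BH3-only protein that removes blood cells deprived of growth factors. WT pre-cDC1 libraries were at 2.16, 2.29 and 2.27 log2 RPKM and KO ones at 2.07, 1.75 and 2.20. WT pre-cDC2 libraries were at 2.72 and 4.25 and KO ones at 3.90 and 3.92. The cell types did not overlap in either genotype. It was higher in KO pre-cDC2 than in KO pre-cDC1 by 1.90 ± 0.38 (3.74-fold, adjusted p = 0.00770, limma), a call that held in 17 of 20 alternatives. The WT difference of 1.25 ± 0.38 missed the threshold (adjusted p = 0.0696, limma). It was 2.01 without WT pre-cDC2 replicate 2 and 0.48 without replicate 3, again with a lone WT pre-cDC2 library left.

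Bid encodes a BH3-only protein that caspase-8 cleaves and so links death receptors to mitochondria. Pre-cDC1 held it at 5.35, 5.56 and 5.08 log2 RPKM for WT and 5.35, 5.53 and 5.18 for KO, and pre-cDC2 at 3.28 and 4.10 for WT and 3.93 and 3.86 for KO. All pre-cDC2 values lay below all pre-cDC1 values, with WT pre-cDC2 replicate 2 the lowest. Bid was lower in pre-cDC2 by -1.65 ± 0.25 in WT (3.13-fold, adjusted p = 0.00316, limma) and -1.46 ± 0.25 in KO (2.74-fold, adjusted p = 0.00315). The calls held in 18 of 20 alternatives in WT and 19 of 20 in KO. Antisense Bcl2l13 shares 17.7% of its exon bases, and whether strand was used in counting is not given in the sources used here.

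Bax was level across the groups. It ranged from 4.62 to 5.25 log2 RPKM over the 10 libraries, and the difference between cell types was -0.18 ± 0.21 in WT (95% interval -0.64 to 0.29) and 0.05 ± 0.21 in KO (-0.42 to 0.51). Bak1 was lower in level than Bax in every library, from 2.13 to 3.29 log2 RPKM. Its difference between cell types was -0.41 ± 0.27 in WT and -0.78 ± 0.27 in KO, where the groups did not overlap but the test was missed (adjusted p = 0.0769, limma). Together the 2 effector genes gave 32.2 to 45.7 RPKM per library.

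Between the cell types, 5 of the 10 genes were called in WT and 6 in KO. In WT, Bcl2 and Bcl2l1 were higher and Bcl2a1a, Bcl2a1d and Bid lower in pre-cDC2, where 11.5% of all genes tested were called, 4.88% higher and 6.59% lower. The groups did not overlap for 7 of the 10, against 38.7% of all genes. In KO, Bcl2l11 joined the higher genes and the lower ones were again Bcl2a1a, Bcl2a1d and Bid, where 20.8% of all genes were called, 10.7% higher and 10.1% lower. Higher genes were 51.2% of the calls in KO, 40.6% with each library centred on its median and 42.7% with quantile normalization. There the groups did not overlap for 9 of the 10, against 51.7% of all genes. The median difference of the 10 genes was -0.32 in WT and -0.59 in KO, beside 0.06 and 0.09 over all genes tested. Both comparisons rest on WT and KO libraries that share 1 estimate of spread. Sample descriptions give libraries of both cell types a common name (such as WT2) without saying that it marks an animal. With that name as a block, 1 of 10 was called in WT (Bcl2a1d, adjusted p = 0.0382, limma) and 4 of 10 in KO (Bcl2, Bcl2l1, Bcl2a1a and Bcl2a1d). Over all 14787 genes tested, that fit called 217 in WT and 1094 in KO.

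**Figure D3:**
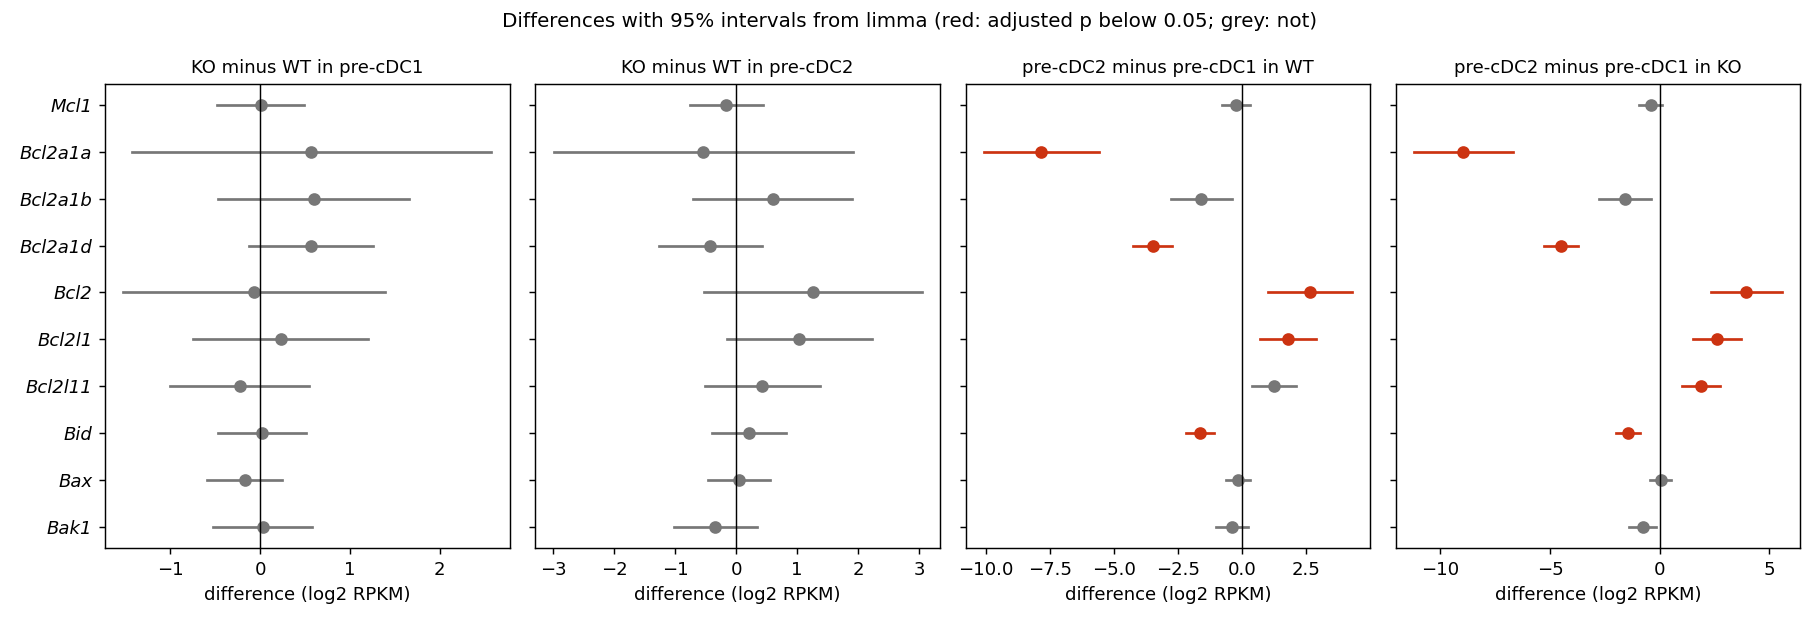
Difference of each of the 10 genes in log2 RPKM (horizontal axis, a range of its own in each panel) in the 4 comparisons, with 95% intervals from limma; red points passed the adjusted threshold of 0.05. No gene passed between KO and WT, while 5 passed between cell types in WT and 6 in KO.

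In the order of levels, Mcl1 led in WT pre-cDC1, followed by Bid, Bcl2a1d, Bax and Bcl2a1a, each overlapping with its neighbour, while Bcl2l1 and Bcl2 were the lowest pair. In KO pre-cDC1 Bcl2a1d led and Mcl1, Bid, Bcl2a1a and Bax followed, again with overlapping neighbours. In KO pre-cDC2 Bcl2 led, ahead of Mcl1, Bax and Bcl2l1 with no overlap between neighbours, and the Bcl2a1 copies came last. In WT pre-cDC2 neighbours overlapped from Mcl1 down to Bcl2a1d, because replicates 2 and 3 differed. Bcl2a1d did not overlap with Bcl2a1b, the next in order.

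Levels of Bcl2, Bcl2l1 and Bcl2l11 moved with those of T cell transcripts across the libraries. The 3 libraries with a T cell marker mean of 6.16 to 6.63 log2 RPKM had Bcl2 at 5.32 to 5.75, Bcl2l1 at 4.27 to 4.40 and Bcl2l11 at 3.90 to 4.25. WT pre-cDC2 replicate 2, with a T cell marker mean of 2.67, had 2.46, 2.39 and 2.72. The summed RPKM of the T cell markers was 3448, 2486 and 2324 in the 3 libraries, 192 in WT pre-cDC2 replicate 2 and 48.8 to 74.8 in pre-cDC1, and that of the NK cell markers was 1659 to 2008, 105 and 40.1 to 65.9. The T cell markers Cd3e and Trac stood at 5.18 to 6.18 and 7.80 to 8.75 log2 RPKM in the 3 libraries. Between cell types, 14 of 20 T cell markers were called higher in pre-cDC2 in WT and 19 in KO. The part of T and NK transcripts in the results for Bcl2, Bcl2l1 and Bcl2l11 was not tested. WT pre-cDC2 replicate 2 had Bcl2a1d at 1.26 and Bid at 3.28, against 1.11 to 2.33 and 3.86 to 4.10 in the other pre-cDC2 libraries. Replicate 2 also had the highest summed RPKM of plasmacytoid DC markers, 1133 against 437 to 615 in the other pre-cDC2 libraries and 161 to 238 in pre-cDC1. In the same order, cDC2 markers summed to 1439, 569.9 to 663.5 and 50.7 to 279, and core cDC markers to 12680, 3962 to 4120 and 36780 to 54450. The part of these transcripts in the levels of Bcl2a1d and Bid was not tested.

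**Figure D4:**
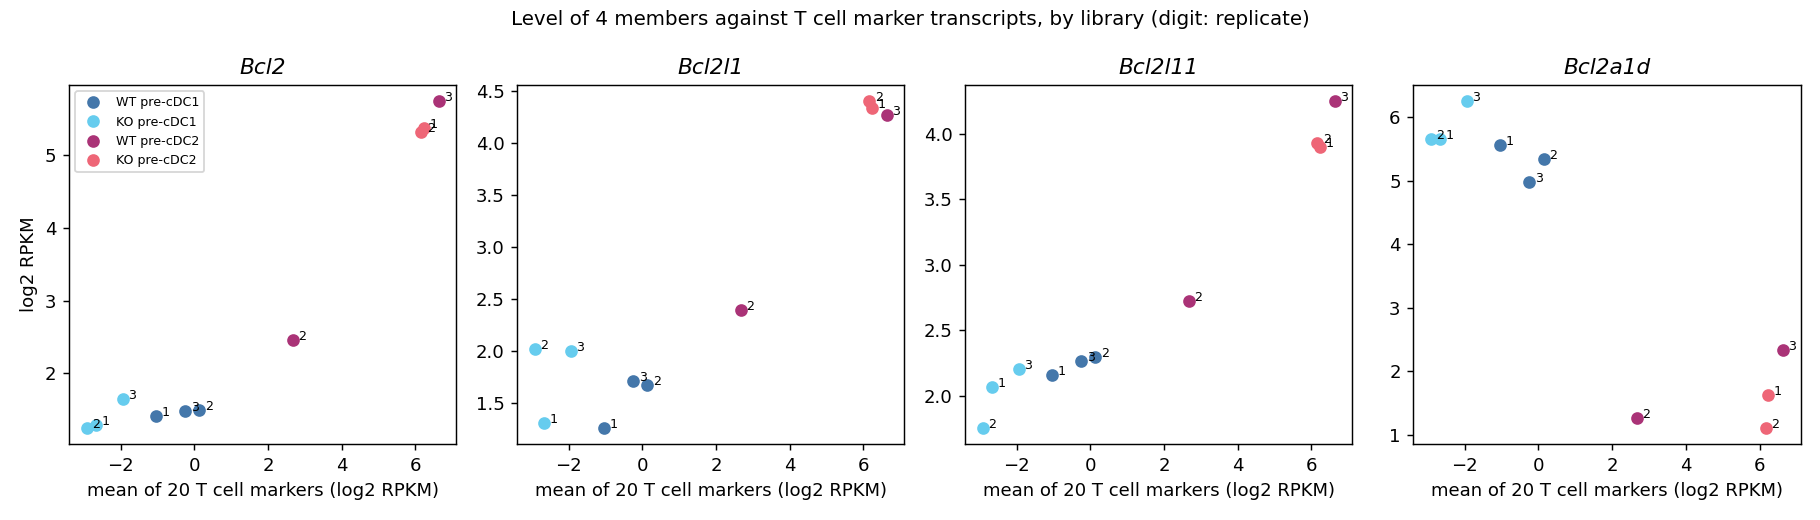
Level of Bcl2, Bcl2l1, Bcl2l11 and Bcl2a1d (vertical axes, log2 RPKM) against the mean of 20 T cell markers (horizontal axis, log2 RPKM) in the 10 libraries, coloured by group and numbered by replicate. The first 3 genes are high in the 3 libraries at 6.16 to 6.63, with WT pre-cDC2 replicate 2 between them and pre-cDC1, whereas Bcl2a1d is low in all 4 pre-cDC2 libraries.

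The genes most like each member were picked by their correlation with it over the 10 libraries, so they share its pattern by selection. As a description, since the libraries fall into separate groups, the highest Pearson r of Bcl2 was with the T cell receptor segments Trbd2 (0.997), Trbj2-5 (0.996) and Traj8 (0.995). Bcl2l11 was most like Ltb (0.994), Ccnd2 (0.991) and Bcl2 (0.990), and Bcl2l1 most like Ube2h (0.994), Hcst (0.990) and Sipa1 (0.987). Bcl2a1a was most like Cyp2s1 (0.987), Preb (0.986) and Tubb6 (0.984). Bcl2a1d was most like Zcchc4 (0.988), Tubb6 (0.988) and Kcnip3 (0.987), and Bcl2a1b like Dennd1b (0.973). Bid was most like Sh3bp1 (0.985), Mcl1 like Dnajb14 (0.968), Bak1 like Tmem184b (0.971) and Bax like Dhx8 (0.905).

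The balance of Bcl2 to Bcl2l11 followed the same libraries. The difference of their log2 RPKM was -0.80 to -0.51 in pre-cDC1, so that Bcl2 was below Bcl2l11 in all 6 libraries. It was -0.26 in WT pre-cDC2 replicate 2 and at least 1.40 in the other pre-cDC2 libraries, where Bcl2 was above Bcl2l11.

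The main question of the design was whether the loss of ADAM10 changes the precursors. In pre-cDC1, 0 of the 10 genes were called between KO and WT by limma, and 0 had an unadjusted p below 0.05. Voom on the recovered reads also called 0, with 1 at an unadjusted p below 0.05. Over all genes tested, limma called 0.0271%. The intervals were narrow for some genes: the difference was 0.01 ± 0.22 for Mcl1 (95% interval -0.48 to 0.49), 0.02 ± 0.22 for Bid (-0.47 to 0.51), -0.17 ± 0.18 for Bax (-0.59 to 0.24) and 0.03 ± 0.25 for Bak1 (-0.52 to 0.58). They were wide for Bcl2, at -0.06 ± 0.65 (-1.52 to 1.40), because the shared estimate of spread includes the WT pre-cDC2 libraries. With only the pre-cDC1 libraries in the fit its standard error was 0.17. The difference was 0.23 ± 0.43 for Bcl2l1 and -0.23 ± 0.34 for Bcl2l11.

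The 3 Bcl2a1 copies gave the largest differences between KO and WT in pre-cDC1. They were 0.57 ± 0.89 for Bcl2a1a, 0.60 ± 0.47 for Bcl2a1b and 0.56 ± 0.31 for Bcl2a1d, with adjusted p = 0.924, 0.802 and 0.643 (limma). For Bcl2a1b and Bcl2a1d every KO library was above every WT library. Counted in either direction, KO and WT did not overlap for these 2 of the 10 genes, which are near-identical copies, against 17.2% of all genes. The 95% interval of the Bcl2a1d difference ran from -0.13 to 1.25, and the sum of the copies differed by 0.55 ± 0.31 (adjusted p = 0.650). The median difference of the 10 genes was 0.03, beside -0.004 over all genes tested. T cell and NK cell markers were lower in level in KO pre-cDC1 in 19 of 20 and 15 of 15 genes with 0 called, and all 15 G2/M genes were higher with 0 called. Of the 9 cDC2 markers tested, 9 were lower (median -2.15), as were 15 of 15 immediate early genes (median -0.73), and 9 of 10 erythroid markers were higher (median 1.68), again with 0 called. Their part in these values was not tested.

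In pre-cDC2, where Adam10 in the libraries labelled KO lay between its levels in the 2 WT libraries, 0 of the 10 genes were called between KO and WT by limma, 0 had an unadjusted p below 0.05, and voom called 0 with 1 at an unadjusted p below 0.05, where 0.0676% of all genes were called. The difference was 1.25 ± 0.79 for Bcl2 (95% interval -0.54 to 3.04), 1.04 ± 0.53 for Bcl2l1 (-0.16 to 2.23) and 0.43 ± 0.42 for Bcl2l11 (-0.52 to 1.37). These values turn on 1 library: without WT pre-cDC2 replicate 2 they were -0.39, 0.098 and -0.34 with none called, and without replicate 3 they were 2.90, 1.98 and 1.19 with all 3 called (adjusted p = 0.00187, 0.0223 and 0.0367, limma). The lone WT library is then assumed to vary like the other groups. In the same comparison 19 of 20 T cell markers and 15 of 15 NK cell markers were higher with 0 called, and 10 of 10 erythroid markers were higher (median 3.78) with 2 called. The summed RPKM of the erythroid markers was 34.5 and 18.4 for WT and 55.3 and 96.3 for KO. The part of these transcripts in the differences was not tested. Bcl2l1 was the 1 gene whose KO and WT libraries did not overlap, against 30.2% of all genes.

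The other members differed little between KO and WT pre-cDC2 against their spread. The difference was -0.43 ± 0.38 for Bcl2a1d, 0.60 ± 0.58 for Bcl2a1b, -0.16 ± 0.26 for Mcl1, 0.21 ± 0.27 for Bid, 0.05 ± 0.23 for Bax and -0.34 ± 0.30 for Bak1. Bcl2a1a had 3 and 1 reads in all in WT and KO pre-cDC2, too few for a fold. The test of whether the KO effect differed between the cell types called 0 of 10 genes, with 0 at an unadjusted p below 0.05, and voom called 0, where 0.0203% of all genes were called. Its values were 1.32 ± 1.03 for Bcl2, -1.11 ± 1.41 for Bcl2a1a and -0.99 ± 0.48 for Bcl2a1d, and smaller in size for the other members. With a lone WT pre-cDC2 library left, the value of Bcl2 was 2.96 without replicate 3 and -0.33 without replicate 2.

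Of 16 other BCL2 family genes, 11 were tested. Pmaip1, which encodes the BH3-only protein NOXA, a partner of MCL-1 and A1, had the highest level: 8.22, 8.13 and 8.21 log2 RPKM for WT and 7.29, 7.66 and 7.45 for KO pre-cDC1, 8.96 and 7.41 for WT and 8.03 and 7.80 for KO pre-cDC2. All 3 KO pre-cDC1 libraries were below the 3 WT ones, but the difference of -0.72 ± 0.32 was not called (adjusted p = 0.558, limma). It was chosen for mention after its values were seen. Between cell types, Bcl2l14 was lower in pre-cDC2 by -3.19 ± 0.61 in WT and -3.89 in KO. Bnip3, a mitophagy receptor, was lower by -1.07 ± 0.30 in KO. Bik, a BH3-only gene with 0 reads in all WT pre-cDC1 libraries and 28 and 13 in WT pre-cDC2, was called higher in WT. That call sets values at the floor against few reads, so its size is uncertain, and Bik was not called in KO. Between KO and WT, 0 of 11 were called in either cell type, and the smallest p belonged to Bcl2l13 in pre-cDC1 (0.57 ± 0.24) and Bnip3 in pre-cDC2 (-0.74 ± 0.33).

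Among genes acting at or downstream of mitochondria, those called were lower in pre-cDC2. Of 18 genes listed as death machinery, 5 were called lower and 0 higher in WT, and 7 lower and 0 higher in KO, with medians of -0.37 and -0.54. The list also holds inhibitors of apoptosis, such as Birc3, and mitochondrial membrane channels, such as Vdac2. Birc3 (-0.73 ± 0.20) and Vdac2 (-0.79 ± 0.16) were among the genes called lower in KO. Over all genes tested, 6.59% were called lower in WT and 10.1% in KO. Casp6, which encodes a caspase, was lower by a log2 difference of -1.84 ± 0.32 in WT and -2.04 ± 0.32 in KO. Casp9, the initiator activated by cytochrome c, was called in KO, at -1.39 ± 0.27, and not in WT, at -0.36 ± 0.27, and the test of the difference between genotypes was not passed (-1.03 ± 0.38, adjusted p = 0.952, limma). In the death receptor arm of 10 genes, Casp8, whose product cleaves BID, was the 1 gene called, higher in pre-cDC2 by 0.76 ± 0.17 in WT and 0.98 ± 0.17 in KO. Beside this 1 of 10, 11.5% of all genes tested were called in WT and 20.8% in KO. Between KO and WT, 0 of these 28 genes were called in either cell type.

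Upstream, regulators of BCL2 family genes and survival cytokine receptors were compared. Of 20 regulators, 2 were called higher in WT pre-cDC2, Stat5a (1.24 ± 0.29) and Stat5b (0.80 ± 0.19), transcription factors of cytokine signalling, and 5 in KO, where Foxo1 (2.41 ± 0.47), Bach2 (2.10 ± 0.42) and Ddit3 (0.94 ± 0.28) joined them. Over all genes tested, 4.88% were called higher in WT and 10.7% in KO. Of 8 receptors, Il2rg (2.32 ± 0.20), Il7r (4.76 ± 1.10) and Il2rb (4.53 ± 1.09) were higher and Kit (-2.66 ± 0.35) and Csf2ra (-1.81 ± 0.36) lower in WT pre-cDC2. The same 5 were called in KO, with Csf1r higher by 2.72 ± 0.52, where 11.5% of all genes were called in WT and 20.8% in KO. The interaction called 0 of the 28 genes. Il2rb and Il7r are also expressed by T and NK cells. In WT pre-cDC2 replicate 2 they stood at 4.41 and 4.32 log2 RPKM, against 8.83 to 9.27 and 7.23 to 7.84 in the other pre-cDC2 libraries. The part of T and NK cell transcripts in the calls of regulators and receptors was not tested. Between KO and WT, none of the 28 genes was called by limma. The nearest was Il2rg in pre-cDC1, at 5.28, 5.17 and 5.60 log2 RPKM for WT and 4.37, 4.41 and 4.22 for KO, a difference of -1.02 ± 0.18 (adjusted p = 0.0802).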

How the data were processed

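SMARTSeq v2 amplified 2 ng of PicoPure-isolated total RNA for paired-end sequencing, per the labels' protocols. The authors' tools were STAR 2.3 (to GRCm38), featureCounts 1.5.0, R 3.3.3 and edgeR, per the submitters' processing notes. The handling of multi-mapped reads and of strand is not given in the sources used here. The deposited values are log2 RPKM, computed by the authors, for 52550 genes. Solving them for reads gave whole numbers within 0.001 for 100% of 525500 values, so limma's voom could be run on the reads as an alternative, with library sizes scaled as the deposited values imply. RPKM per library is 2 to the power of the deposited value.

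Genes above 0 log2 RPKM in at least 2 libraries (14787) were tested with limma 3.58.1 in R 4.3.3: 4 group means over 10 libraries, eBayes with trend, two-sided, adjusted by Benjamini and Hochberg per comparison, threshold 0.05. The 5 comparisons are KO against WT in each cell type, pre-cDC2 against pre-cDC1 in each genotype, and the interaction. The procedure was tested on simulated data, where it recovered few of the planted changes, so that a gene that was not called may still differ. All 10 members are named, of each related list the up to 6 called genes with the smallest p per comparison (else the 1 with the smallest p), and 3 genes per member by likeness. Some genes of the related lists are not reported by name here. Members and lists were chosen with earlier results of these data known. Deviations of same-numbered libraries from their group means correlated at r of -0.03 to 0.03. In groups of 2 libraries these deviations mirror each other, so the check cannot exclude pairing. No pairing is given by the labels, and the main tests were unpaired. Alternatives were other filters, 1 RPKM added, other scalings, eBayes without trend, fewer groups, blocks, voom, summed copies and each library left out. Promoters come from RefSeq and transcripts from GENCODE M21. Intervals on reads cover counting error only, since PCR reads without molecular identifiers are not independent molecules.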

Additional observations from a re-analysis of the deposited data

How the results depend on the processing

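The members called between cell types in WT depended most on the processing. Against 5 of 10 they numbered 3 without a filter, with eBayes without trend and with voom, 2 with only the groups compared, and 1 with the shared name as a replicate block. With the Bcl2a1 copies summed, 3 of the 7 other members were called, Bcl2, Bcl2l1 and Bid as before, and so was the sum. Over all genes, the counts called were 4, 10, 1697, 3074 and 3 for KO against WT in pre-cDC1, the same in pre-cDC2, cell types in WT, cell types in KO, and the interaction. In pre-cDC1 the count became 11 without a filter, 18 with a stricter filter (3 or more libraries above 1 log2 RPKM), 2 with 1 RPKM added, 9 with quantile normalization, 18 without trend, 53 with only the groups compared and 0 with voom. In pre-cDC2 it became 25 without a filter, 5 with 1 RPKM added, 42 without trend, 0 with only the groups compared and 4 with voom. For the interaction it became 1 with the stricter filter, 6 with quantile normalization, 36 without trend and 1 with voom. Cell types in WT gave 1801 without a filter, 1323 without trend, 1966 with voom and 460 with only the groups compared. The cause of these changes was not tested.

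Whether same-numbered libraries pair could not be decided, since the labels give no pairing and the check on deviations cannot exclude it. For KO against WT with the replicate number as a block, pre-cDC1 gave 0 called genes and pre-cDC2 gave 2, with 0 members among them. Bcl2a1a turned to 0.26 in pre-cDC2 in that fit. With the shared name as a block, 217 genes were called between cell types in WT, 1094 in KO and 0 for the interaction, in which Bcl2a1b turned to -0.12. That small interaction of Bcl2a1b also turned to -0.20 with 1 RPKM added, -0.090 with quantile normalization and -0.070 with centring on library medians. Centring turned Bax to -0.025 between KO and WT in pre-cDC2 and to -0.15 between cell types in KO. It moved the median of all genes in the latter comparison from 0.09 to -0.10, and the higher share of calls from 51.2% to 40.6%. Quantile normalization moved that share from 80% to 63.6% for KO against WT in pre-cDC2.

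Leaving out each library in turn gave 0 to 0 members called between KO and WT in pre-cDC1, 0 to 3 in pre-cDC2, 3 to 7 between cell types in WT, 5 to 8 in KO and 0 to 1 for the interaction. All genes called ranged from 0 to 114, 5 to 1048, 999 to 2722, 1418 to 3887 and 0 to 495. The highest counts came without WT pre-cDC2 replicate 2 (2722) or replicate 3 (114, 1048, 3887 and 495). Small differences changed sign. Between KO and WT in pre-cDC1, Bcl2 ran from -0.19 to 0.010, Mcl1 from -0.076 to 0.11, Bid from -0.10 to 0.14 and Bak1 from -0.070 to 0.19. In pre-cDC2, Bcl2 ran from -0.39 to 2.90, Bcl2a1a from -2.33 to 1.25, Bcl2a1b from -0.31 to 1.52, Bcl2a1d from -0.96 to 0.11, Mcl1 from -0.61 to 0.28, Bcl2l11 from -0.34 to 1.19, Bid from -0.20 to 0.62, Bax from -0.19 to 0.30 and Bak1 from -0.69 to 0.010. Between cell types, Mcl1 in WT ran from -0.69 to 0.20, and Bax from -0.42 to 0.070 in WT and -0.079 to 0.17 in KO. For the interaction, Bcl2 ran from -0.33 to 2.96, Bcl2l1 from -0.13 to 1.75, Bcl2a1a from -2.90 to 0.68, Bcl2a1b from -0.91 to 0.92, Mcl1 from -0.62 to 0.27, Bcl2l11 from -0.11 to 1.42, Bid from -0.22 to 0.60 and Bax from -0.022 to 0.47. Depth limits Bcl2a1a in pre-cDC2, at 0 to 3 reads per library, and Bcl2a1b, at 6 to 46 reads per library.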
